A study of Rattus norvegicus with 6 samples.

Results

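The miR-200 family was described in small RNA libraries of PC12 cells, a line from a rat adrenal pheochromocytoma that is widely used as a model of neuron-like cells. Members were all rows of the count table named for miR-200a, miR-200b, miR-200c, miR-141 or miR-429, which gave 9 of 1289 rows, or 9 of the 584 rows named for known rat miRNAs. The series' title concerns exosomes of Netrin-1 engineered endothelial cells and peripheral nerve repair, and its labels give 3 libraries of group EC and 3 of group EN without spelling out either name, a treatment or a time. All 6 libraries come from the same cell line, and nothing in the labels ties replicates to separate cultures. The p-values below therefore rest on spread among these libraries that may be technical.

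MicroRNAs of this family are made from a pair of genomic clusters, one with miR-200b, miR-200a and miR-429 and the other with miR-200c and miR-141. They are best known for repressing the transcription factors Zeb1 and Zeb2, which in turn repress both clusters, and high levels are typical of epithelial cells, where they sustain E-cadherin. In the nervous system the family is known from olfactory neurons and neural progenitors. By target recognition the family splits across the clusters, because miR-200b, miR-200c and miR-429 share a seed (bases 2 to 8 of the mature miRNA) that differs from the seed of miR-200a and miR-141.

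The sequences show how seed and cluster cut across each other. RefSeq (build GRCr8) held mature sequences for 6 of the 9 members, here with the seed in capitals, written 5′ to 3′.
rno-miR-200c-3p: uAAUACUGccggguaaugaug
rno-miR-141-3p: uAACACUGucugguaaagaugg
rno-miR-200b-5p: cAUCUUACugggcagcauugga
rno-miR-200a-5p: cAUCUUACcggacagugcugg
rno-miR-200c-5p: cGUCUUACccagcaguguuug
rno-miR-141-5p: uCCAUCUUccagugcaguguug
The members named only are rno-miR-429, rno-miR-200b-3p and rno-miR-200a-3p. Between the 3p arms of miR-200c and miR-141, with miR-200c as the first base and positions counted from the 5′ end, the seed differed by 1 substitution, U4C, and C9U, G11U and U17A lay outside the seed. On the 5p side, miR-200a and miR-200b shared the seed AUCUUAC, and the seeds of miR-200c-5p and miR-141-5p each differed from it.

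All 5 genes had a hairpin in the same reference, printed with the run that equals the seed of miR-200c-3p (AAUACUG) or of miR-141-3p (AACACUG) in capitals. Mir429 lies at chr5:171929682-171929766, Mir200a at chr5:171930717-171930805 and Mir200b at chr5:171931495-171931589, all on the minus strand. Each overlaps the annotated lncRNA gene LOC106182250 and the protein-coding gene Ttll10. Mir141 at chr4:159209525-159209618 and Mir200c at chr4:159209965-159210033 are also on the minus strand.
Mir429: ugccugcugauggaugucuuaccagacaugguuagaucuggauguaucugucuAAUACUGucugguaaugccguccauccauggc
Mir200b: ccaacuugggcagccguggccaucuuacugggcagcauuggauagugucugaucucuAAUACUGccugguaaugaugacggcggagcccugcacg
Mir200c: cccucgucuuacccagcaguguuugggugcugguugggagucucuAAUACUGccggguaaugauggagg
Mir200a: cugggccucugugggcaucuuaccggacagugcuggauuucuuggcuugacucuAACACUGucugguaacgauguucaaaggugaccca
Mir141: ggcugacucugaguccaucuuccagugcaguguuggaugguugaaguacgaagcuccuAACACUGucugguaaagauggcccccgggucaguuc
Each hairpin held 1 such run. Read on the hairpin strand, AAUACUG was present in 4 of 419 rat hairpins (0.955 percent), the fourth being Mir145, and AACACUG in 4 of 419, the others being Mir3575 and Mir3587. The reverse complements CAGUAUU and CAGUGUU were present in 3 and 13 hairpins. Neither run overlaps the other within a family hairpin. The longest stretch that any pair of the 5 hairpins shared was 17 bases, between Mir200a and Mir141, followed by 14 bases between Mir200b and Mir200c. These stretches are shorter than the 21 or 22 bases of the mature sequences, and no source used here tells how reads that match several places were counted. Mir3548 lies over Mir200a and Mir3575 over Mir200c on the opposite strand, and the count table had no row named for either. No strand rule is stated, so reads of such overlapping genes cannot be told apart.

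MiR-429 was the most abundant member, at a middle rank among known miRNAs, and the rest of the family was scarce. Levels are given as CPM, counts scaled to the miRNA total of a library after TMM scaling, which corrects for differences in library composition. A single read was worth 0.153 to 0.229 CPM, and the libraries held 4521694 to 6554639 miRNA counts. Rno-miR-429 had 91, 118 and 110 reads in the EC libraries and 128, 83 and 87 in the EN libraries, or 14.1, 18.8 and 16.8 CPM and 23.7, 19.0 and 19.1 CPM. Its mean of 18.6 CPM ranked 252nd of 584 known rows, next to miR-351-3p at 18.9 and miR-664-3p at 18.1 CPM, where the most abundant known row stood at 81305 CPM. In bulk RNA, fewer cells that make a miRNA and less of it per cell cannot be told apart.

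The other guide arms of the cluster on chromosome 5 followed in a fixed order. MiR-200b-3p, which shares its seed class with miR-429, had 26, 42 and 22 reads in EC and 38, 24 and 43 in EN, or 4.01, 6.70 and 3.36 CPM and 7.03, 5.49 and 9.42 CPM. MiR-200a-3p, of the other seed class, had 8, 13 and 11 reads in EC and 15, 9 and 7 in EN, or 1.24, 2.08 and 1.68 CPM and 2.77, 2.06 and 1.53 CPM. Within a library, miR-429 exceeded miR-200b-3p by 2.02 to 5 times and miR-200a-3p by 8.53 to 12.4 times. The ranges of miR-429, miR-200b-3p and miR-200a-3p over the 6 libraries did not overlap each other, so this order held in all 6 libraries. These are ratios of reads, and capture during library preparation can differ between miRNAs of different sequence.

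**Figure D1:**
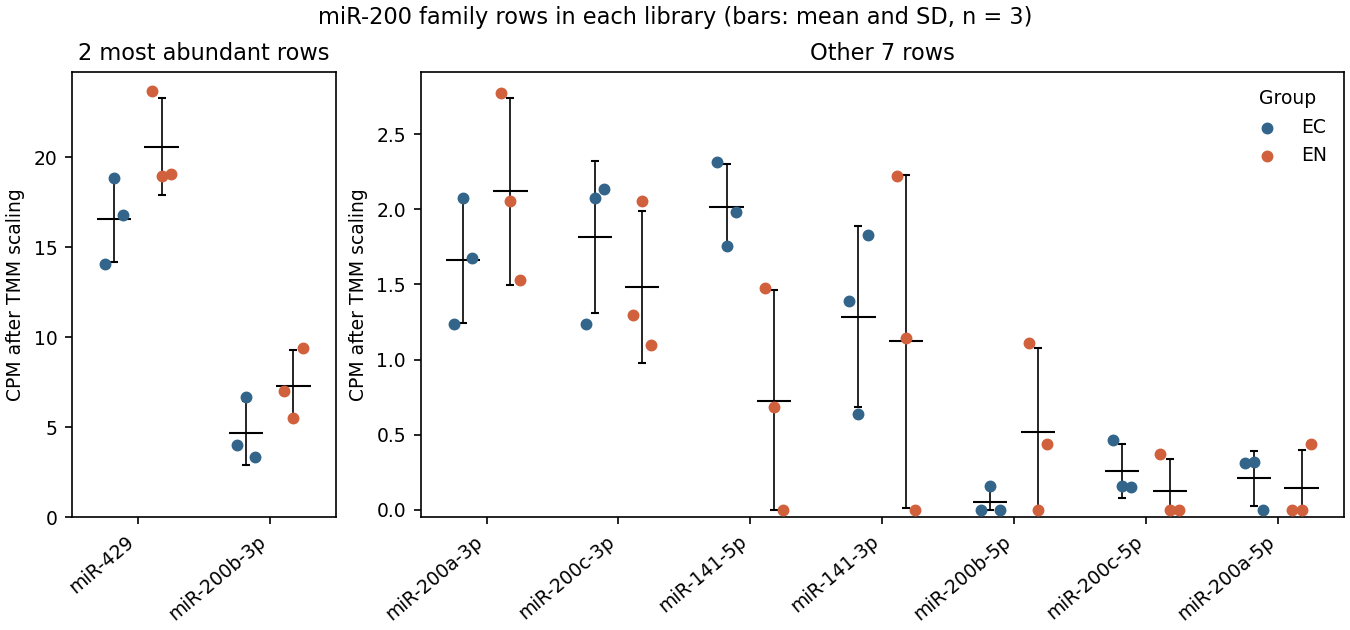
CPM after TMM scaling (vertical axes, on different scales) of the 9 family rows in each EC and EN library (points), with the mean and SD of each group (lines, n = 3, lower end stopped at 0). MiR-429 lies between 14.1 and 23.7 CPM in all libraries, above miR-200b-3p, and the other 7 rows stay under 3 CPM.

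The cluster on chromosome 4 was lower, and the levels of miR-200c-3p, miR-141-5p and miR-141-3p overlapped each other and that of miR-200a-3p. MiR-200c-3p, identical in seed to the run capitalised in Mir429 and Mir200b, had 8, 13 and 14 reads in EC and 7, 9 and 5 in EN, or 1.24, 2.08 and 2.14 CPM and 1.29, 2.06 and 1.10 CPM. MiR-141-3p had 9, 4 and 12 reads in EC and 12, 5 and 0 in EN, and miR-141-5p had 15, 11 and 13 in EC and 8, 3 and 0 in EN. The ranges of miR-200a-3p, miR-200c-3p, miR-141-5p and miR-141-3p overlapped their neighbours in the order of means, 1.89, 1.65, 1.37 and 1.20 CPM. EN replicate 3 stood apart in having 0 reads of both arms of miR-141, which at its depth allows up to 0.657 CPM for each (3 counts, counting error only).

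The 5p rows of the 3 miR-200 genes were close to the limit of detection. MiR-200b-5p had 0, 1 and 0 reads in EC and 6, 0 and 2 in EN, miR-200c-5p 3, 1 and 1 and 2, 0 and 0, and miR-200a-5p 2, 2 and 0 and 0, 0 and 2. Of the 9 members, 4 had reads in all 6 libraries, namely miR-429, miR-200b-3p, miR-200a-3p and miR-200c-3p. Their ranks among 584 known rows were 252, 301, 368 and 380, and those of the other members ran from 388 for miR-141-5p to 492 for miR-200a-5p.

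**Figure D2:**
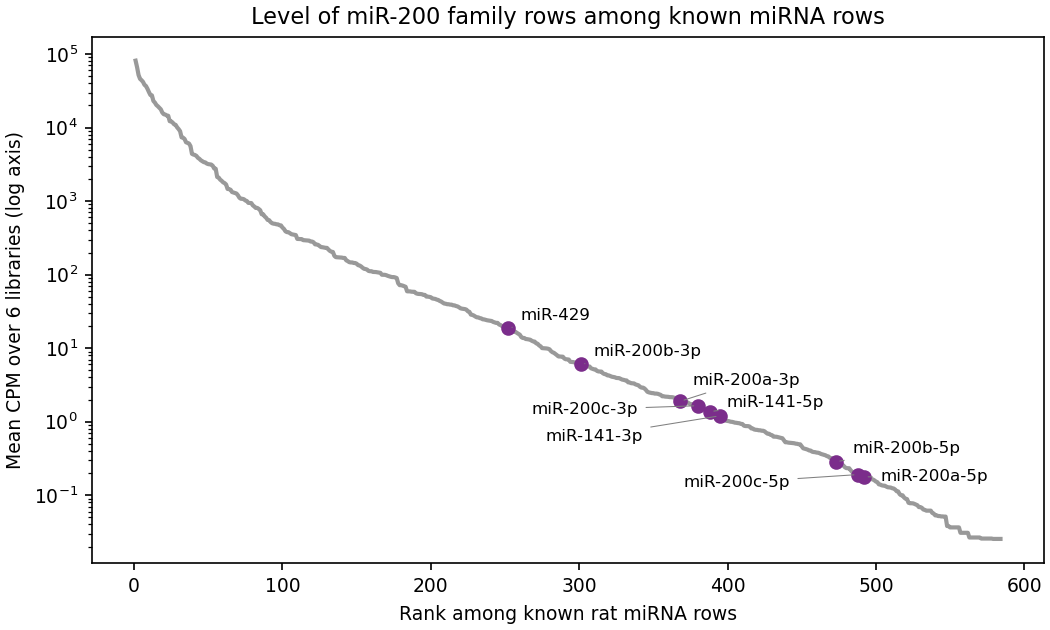
Mean CPM over 6 libraries (log axis) against rank for the known rat miRNA rows (grey line), with the 9 family rows marked. The family begins at rank 252 with miR-429 and ends at rank 492 with miR-200a-5p.

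Arm use separated miR-141 from the 3 miR-200 genes. The arms of a hairpin are its 5p and 3p strands, of which usually 1 is retained as the guide. With the 6 libraries pooled, the 5p row held 4.41 percent of the reads of miR-200b (9 of 204 reads, exact binomial 95 percent interval 2.04 to 8.21), 8.70 percent of miR-200a (3.26 to 18.0) and 11.1 percent of miR-200c (4.59 to 21.6). For miR-141 it held 54.3 percent (43.6 to 64.8), 50 reads against 42 of the 3p row. These intervals cover counting error only. MiR-200c-3p and miR-141-3p come from the same cluster, so the contrast in arm use lay within it. In single libraries the 5p share of miR-141 ran from 37.5 to 73.3 percent over the 5 libraries with reads, while the shares of the other genes ran from 0 to 27.3 percent over all 6. The highest share of any miR-200 gene, in EC replicate 1 for miR-200c, rested on 3 of 11 reads. MiR-429 has a single row with no arm in its name, so its arm use could not be described.

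**Figure D3:**
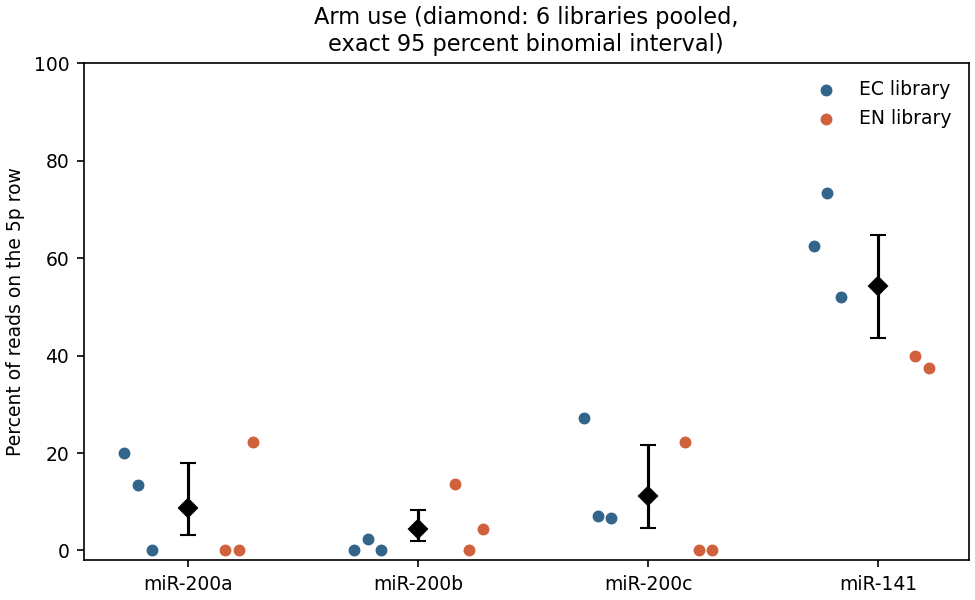
Percent of reads on the 5p row (vertical axis) for the 4 members with both arms counted, by EC and EN library (points) and pooled over 6 libraries (diamonds, exact 95 percent binomial interval). MiR-141 lies at 54.3 percent, and the miR-200 genes lie between 4.41 and 11.1 percent.

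Between groups, the 5p share of miR-141 was 62.5, 73.3 and 52 percent in the EC libraries and 40 and 37.5 percent in the 2 EN libraries with reads. The ranges did not overlap, with 39 reads of 5p and 25 of 3p in EC against 11 and 17 in EN. With the libraries of a group pooled, the 5p share was 60.9 percent in EC (exact binomial interval 47.9 to 72.9). In EN it was 39.3 percent (21.5 to 59.4), so the intervals of the groups overlapped. How often the shares of other pairs separated in this way was not tested. The log2 ratio of 5p to 3p, with 1 read added to each, averaged 0.68 ± 0.58 in EC and -0.37 ± 0.32 in EN (SD, n = 3), a difference of -1.05. In EN replicate 3 this ratio is 0 by construction, since both arms had no reads. No pair of the family reached the mean of 20 reads in both arms required for the test of arm use. With a mean of 5 reads required, miR-141 was among 167 pairs and did not pass limma's test with Benjamini-Hochberg adjustment (SE 0.36, adjusted p = 0.227). Of those 167 pairs, 7 were called, so most pairs did not pass either.

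Setting EN against EC asks whether the family differed between the groups, and none of its members passed. In edgeR's quasi-likelihood fit of 628 rows, at a Benjamini-Hochberg adjusted p under 0.05, 25 rows or 3.98 percent were called, 13 higher and 12 lower in EN. With libraries scaled to the totals that the deposited RPM values imply, there were 13 higher and 88 lower calls. Of the 9 members, 5 had enough reads to be tested, with 0 called by edgeR, DESeq2 or limma-voom. At an unadjusted p under 0.05 there were 0 members by edgeR or DESeq2 and 1, miR-141-5p, by limma-voom. That row passed the filter only through EC, where it was higher, so its p is not read as support. The same cut held 21.7 percent of the 628 rows by edgeR, 21.8 percent by DESeq2 and 22.5 percent by limma-voom. After adjustment DESeq2 called 11.1 percent and limma-voom 3.66 percent of these rows.

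The mean level of miR-429 was 16.6 ± 2.40 CPM in EC against 20.6 ± 2.69 in EN (SD, n = 3), and its 3 EN values lay above its 3 EC values by a small margin. Such separation in either direction was found in 29.6 percent of tested rows. Its log2 fold change was 0.31 (95 percent interval -0.12 to 0.75), with adjusted p = 0.376 by edgeR. As deposited RPM, which divides by a larger library total, it stood at 5.33 ± 0.79 in EC and 5.29 ± 0.98 in EN with overlapping groups, and the log2 fold change with those totals was -0.0097. MiRNA counts were 30.9 to 32.6 percent of the totals in EC and 24.99 to 26.9 percent in EN, and this scaling moved the median log2 fold change of all rows from 0.02 to -0.30. The value of miR-429 was therefore 0.29 above the median of all rows under both scalings.

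MiR-200b-3p and miR-200a-3p had positive log2 fold changes with overlapping groups. MiR-200b-3p averaged 4.69 ± 1.77 CPM in EC against 7.31 ± 1.98 in EN, a log2 fold change of 0.64 (interval -0.18 to 1.46, edgeR adjusted p = 0.316). MiR-200a-3p averaged 1.66 ± 0.42 and 2.12 ± 0.62 CPM, a log2 fold change of 0.36 (interval -0.56 to 1.28, edgeR adjusted p = 0.653). Both stayed positive with totals implied by RPM, at 0.31 and 0.041.

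MiR-200c-3p and miR-141-5p had negative log2 fold changes. MiR-200c-3p averaged 1.82 ± 0.50 CPM in EC against 1.48 ± 0.51 in EN with overlapping groups, a log2 fold change of -0.30 (interval -1.30 to 0.70, edgeR adjusted p = 0.720). MiR-141-5p averaged 2.02 ± 0.28 and 0.72 ± 0.74 CPM, and its 3 EN values lay below its 3 EC values. It entered the test through its EC libraries alone, and its log2 fold change of -1.40 (interval -3.16 to 0.36) did not pass edgeR's test, with adjusted p = 0.310. It was -0.86 without EN replicate 3, the library with no miR-141 reads, and -2.51 without EN replicate 1. Fitted without a filter it was -1.43, with an interval that left out 0 (-2.79 to -0.074) but an edgeR adjusted p of 0.344. Among rows too low for that test, a fit without a filter gave -0.19 for miR-141-3p (interval -1.86 to 1.48) and 2.90 for miR-200b-5p (interval -0.14 to 5.94), the latter from 1 read in EC and 8 in EN.

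**Figure D4:**
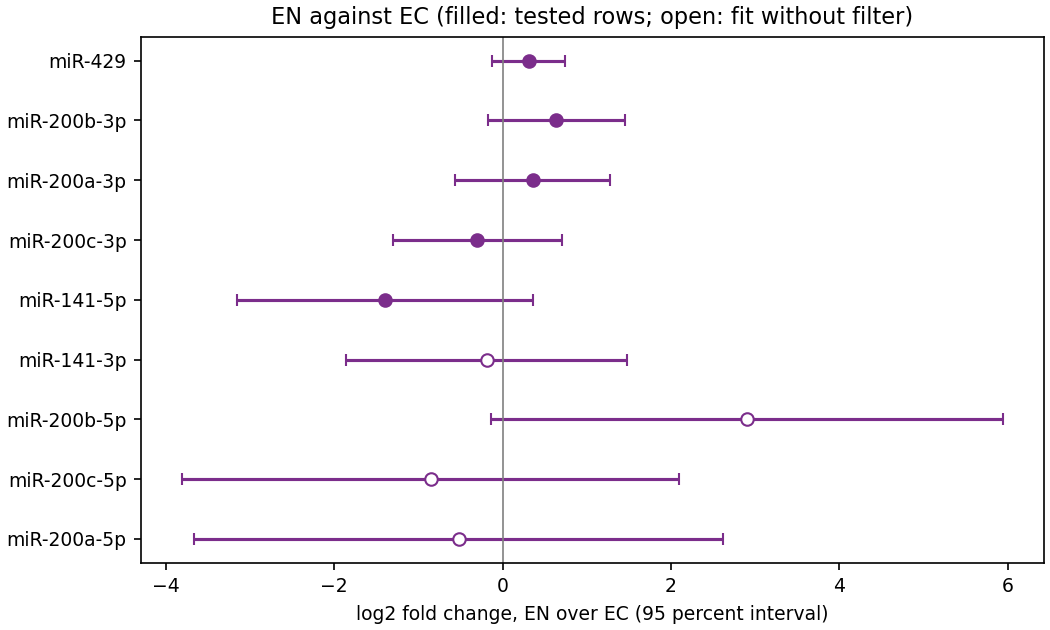
Log2 fold change of EN over EC (horizontal axis) with its 95 percent interval for the 9 family rows, from edgeR on tested rows (filled) or from a fit without a filter on low counts (open). All intervals shown include 0, and that of miR-429, from -0.12 to 0.75, is the narrowest.

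Summed over its rows, the cluster on chromosome 5 exceeded the cluster on chromosome 4 in every library. The cluster with miR-200a, miR-200b and miR-429 held 890 of 1045 family reads, and the cluster with miR-200c and miR-141 held 155. The former took 19.6, 28.1 and 21.8 CPM in EC and 34.6, 26.5 and 30.9 CPM in EN, and the latter 5.40, 4.63 and 6.11 CPM and 5.36, 3.89 and 1.10 CPM. EN replicate 3 had the lowest level of the chromosome 4 cluster, with 5 reads, all of miR-200c-3p. The ratio between clusters was 3.63, 6.07 and 3.58 in EC and 6.45, 6.82 and 28.2 in EN. The excess in every library depended on miR-429, which held 617 of the 890 reads. Without it, EC replicate 3 had 22 reads of miR-200b-3p and 11 of miR-200a-3p, against 40 of the chromosome 4 cluster. In the other libraries the remaining rows still summed higher, in EC replicate 1 only narrowly.

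As a share of family reads, the chromosome 5 cluster made up 78.4, 85.9 and 78.1 percent in EC and 86.6, 87.2 and 96.6 percent in EN, with means of 80.8 ± 4.38 and 90.1 ± 5.60 percent (SD, n = 3). The EN values lay above the EC values, but EC replicate 2 with an exact binomial interval of 80.3 to 90.3 percent and EN replicate 1 with 81.3 to 90.8 percent overlapped widely. The difference of 9.33 percentage points became 6.10 without EN replicate 3. No test was made of this sum, because the members were chosen with earlier results of these data known. The share does not depend on how libraries are scaled. In RPM the chromosome 5 cluster stood at 7.47 ± 1.52 in EC and 7.89 ± 1.47 in EN, and the chromosome 4 cluster at 1.73 ± 0.19 and 0.89 ± 0.59. MiR-429 alone made up 56.2 to 62.4 percent of family reads in each library, a narrow range across both groups.

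**Figure D5:**
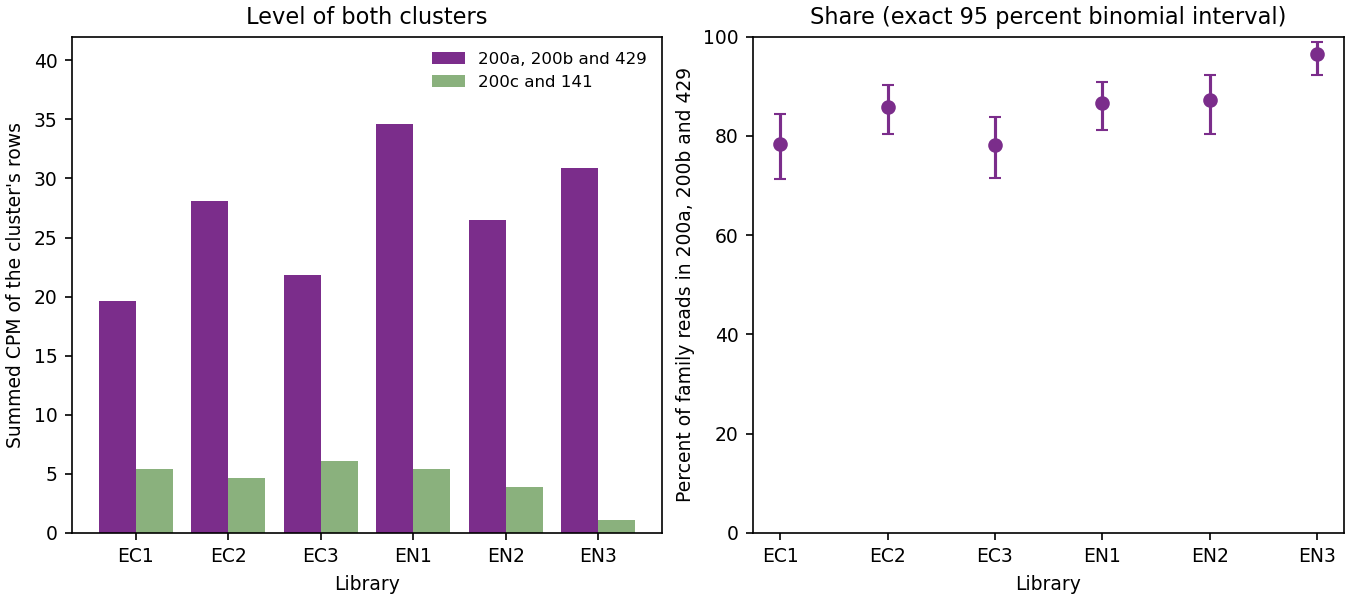
Summed CPM of the rows of each cluster by library (left, bars from 0) and the percent of family reads in the cluster with miR-200a, miR-200b and miR-429 (right, exact 95 percent binomial interval). That share is 78.1 to 85.9 percent in EC and 86.6 to 96.6 percent in EN.

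Other miRNAs linked to epithelial or mesenchymal state gave 0 calls as well. Of 19 names in this list, 27 rows were found and 18 tested, with 0 passing edgeR, DESeq2 or limma-voom. After adjustment these tools called 3.98, 11.1 and 3.66 percent of all tested rows, so few calls would be found among 18 rows at those shares. Unadjusted p was under 0.05 for 4, 5 and 4 rows by these tools, beside 21.7, 21.8 and 22.5 percent of all tested rows. Log2 fold changes were positive in 10 and negative in 8, with a median of 0.035 beside 0.020 over all tested rows. The list's most abundant rows were miR-21-5p, at 45994 CPM over all libraries, and miR-34a-5p, at 17719 CPM, followed by miR-21-3p, miR-34b-3p, miR-199a-3p and miR-192-5p at 494, 282, 168 and 144 CPM. With a minimum mean of 10 CPM miR-34b-5p passed as lower, 1 of 12 list rows tested, beside 37 of 374 over all rows. With totals implied by RPM miR-34b-5p and miR-34c-5p passed as lower, 2 of 18. Over all rows that setting called 101 of 619, of which 88 were lower.

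Markers of other cell types ranged from a few reads (epithelial) to levels far above miR-429 (endothelial). The epithelial miR-205 had 1, 2 and 0 reads in EC and 4, 5 and 3 in EN, and miR-203a-3p had 3, 5 and 3 and 5, 7 and 8. The 4 epithelial rows together took 0.458 to 1.12 CPM in EC and 1.66 to 3.20 CPM in EN, and miR-203b-3p was at 0 in 5 libraries. Blood cell markers summed to 92.9 to 125 CPM in EC and 156 to 178 CPM in EN, almost all of it miR-150-5p and miR-451-5p, of which miR-451-5p rose with a log2 fold change of 1.52 (edgeR adjusted p = 0.0471). The part of these cell types in the values of the miR-200 family was not tested. Endothelial markers, mostly miR-126a-3p, summed to 1064 to 1144 CPM and 1086 to 1228 CPM. The less abundant miR-126a-5p fell by 0.86 on the log2 scale (edgeR adjusted p = 0.0471). In the blood cell and endothelial lists alike, 1 of 2 tested rows was called, beside 3.98 percent of all 628 tested rows. Both calls lay just under the threshold, and whether they held under the alternatives was not tested. Liver markers summed to 5.95 to 9.74 CPM in EC and 8.69 to 14.4 CPM in EN, and muscle markers to 1.76 to 30.6 CPM and 1.75 to 2.40 CPM. The highest muscle value came from miR-206-3p in EC replicate 1, with 187 reads. That row had 9 and 21 reads in the other EC libraries and 9, 7 and 5 in EN. None of the 6 tested rows of the neuroendocrine and chromaffin list passed edgeR's test. Their log2 fold changes were 0.35 for miR-7a-5p, 0.15 for miR-182, 0.048 for miR-375-3p, -0.095 for miR-7a-2-3p, -0.79 for miR-96-5p and -1.60 for miR-183-5p. Of the 6 rows only miR-7a-5p, at 1055 ± 80.2 CPM in EC against 1343 ± 131 in EN, was more abundant than miR-429. MiR-375-3p averaged 2.65 ± 0.61 and 2.75 ± 0.46 CPM. Over all libraries miR-182, miR-183-5p, miR-96-5p and miR-7a-2-3p averaged 13.3, 3.65, 2.91 and 1.73 CPM.

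Rows most like miR-429 over the 6 libraries were sought among the 198 known rows with a mean of 50 CPM or more. That cut lies above the level of miR-429 and of every other family row. The highest were miR-146a-5p, miR-350, miR-1306-5p, miR-7a-5p and miR-181c-5p. Their Pearson correlations with miR-429 in log2(CPM + 0.5) were 0.933, 0.911, 0.891, 0.888 and 0.878. Within the family, miR-429 correlated at 0.907 with miR-200a-3p and 0.657 with miR-200b-3p, both of its own cluster, and at -0.040 with miR-200c-3p. With 6 points in 2 groups that share libraries and depth, these values are descriptions of the libraries only.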

How the data were processed

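Small RNA of 6 PC12 libraries was counted per mature miRNA. The authors deposited whole-number read counts and, beside them, RPM, each the count over a single total per library to within 0.00176, and a mean of each per group, kept as a score and not used. HISAT2 2.0.5 and Rnor 6.0 are named in the submitters' processing notes, and for the counting program, miRNA annotation and strand rule no source used here gives a name. The table had 705 rows of predicted miRNAs beside the known ones.

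Counts were fitted across all rows with edgeR 4.0.16 in R 4.3.3 (filterByExpr with a minimum count of 10, TMM factors, quasi-likelihood test with robust dispersion, Benjamini-Hochberg adjustment). Intervals are the log2 fold change plus or minus SE times the t quantile for two-sided 95 percent coverage. Arm use was fitted with limma 3.58.1 on log2((5p + 1)/(3p + 1)). Alternatives were RLE factors, total counts, totals implied by RPM, limma-voom, DESeq2 1.42.0, no filter, a mean of at least 10 CPM, no predicted rows, leaving out each library, and a replicate block, and for arm use a lower minimum and a pseudocount of 0.5. Scripts were tested on simulated data. Sequences are from RefSeq (GRCr8), whose build differs from that of the counts. Python 3.11.15, pandas 2.3.3 and matplotlib 3.10.9 were used for tables and figures. Named miRNAs were all family rows and the 6 most abundant rows of the epithelial and mesenchymal list together with any past the threshold. Also named were the 5 rows most correlated with miR-429 among known rows of at least 50 CPM, and its nearest neighbours in level. Rows of that list called under an alternative, and marker rows, were named after their values were seen. The members and lists were chosen with earlier results of these data known.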

Additional observations from a re-analysis of the deposited data

How the results depend on the processing

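None of the family members passed the threshold under any of the 15 alternatives. MiR-200b-3p and miR-200a-3p kept positive and miR-200c-3p negative log2 fold changes in each alternative that tested them. The sign of miR-141-5p is not read as stability, since with a filter it was tested through its EC libraries. MiR-429 reversed to -0.0097 with library totals implied by RPM and otherwise ranged from 0.20 to 0.44, where the changed divisor moved the median of all rows. Its adjusted p over the alternatives was 0.185 to 0.980. Over all rows, calls numbered 101 with totals implied by RPM, 44 with no filter, 70 with DESeq2 and 2 to 39 without 1 library. The cause of these shifts beyond the divisor was not tested. A replicate block by the labels' numbers gave 2 calls over all rows and 0 in the family. Deviations from the group means correlated between same-numbered libraries at 0.077, -0.052 and 0.0070, so the numbers were not taken to pair the libraries. Only EC replicate 1 correlated best with its own number, and every other library correlated better with a different one. The arm difference of miR-141 was -1.34 to -0.76 and the gap in cluster share 6.10 to 11.8 percentage points without 1 library. Depth limits the 7 members other than miR-429 and miR-200b-3p, none of which had more than 15 reads in a library.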
